A study of Mus musculus with 9 samples.

Results

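The transcriptomes compared here are those of mouse embryonic stem cells kept in EPSCM and in 2iLIF, 2 media built on small-molecule inhibitors. The comparison uses 6 of the 9 libraries of the study, 3 per medium, and 12006 of the 24819 genes in the table, those with an FPKM of 1 or more in at least 3 of the 6 libraries. FPKM is the number of fragments scaled by transcript length and library total. All libraries were made from polyadenylated RNA of the E14 line, a male mouse line with no genotype change or added treatment named in the labels, grown on gelatin and held stably in its medium. The 2iLIF cells were in serum-free N2B27 medium with leukemia inhibitory factor (LIF) and the inhibitor pair called 2i, the EPSCM cells were in expanded potential stem cell medium, and the remaining 3 libraries, given beside some results as ES, came from serum medium with LIF. E14 is 1 established line, and nothing in the labels tells separate cultures from repeat preparations within a medium, so the p-values reflect the scatter among the libraries alone, part or all of which may be technical. In bulk RNA, fewer cells expressing a gene and less RNA per cell cannot be told apart.

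As background, 2i blocks MEK, the kinase above ERK, and GSK3, the kinase that marks β-catenin for destruction, so 2iLIF silences ERK signalling and stimulates the WNT pathway; cells in it are described as naive, or ground-state. EPSCM as published keeps LIF and inhibitors of MEK and GSK3 and adds inhibitors of JNK, p38 and SRC family kinases and of tankyrase. Tankyrase inhibition stabilises AXIN, part of the complex that destroys β-catenin. The labels of these samples do not list the components, so the exact recipe of these cultures is not known here. The comparison asks how cells in the expanded potential medium differ from cells in the ground state.

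The media separated along the first principal component of the 12006 genes, which held 88.2% of the variance; the second held 9.14% and set EPSCM replicate 2 and 2iLIF replicate 1 apart from the other libraries of their media, both in the same direction. Replicate numbers follow the order of the samples. Across genes, which are not independent replicates, r was 0.9971 and 0.9975 between the close libraries of a medium, 0.9857 to 0.9901 in pairs with a library that stands apart and 0.8995 to 0.9129 between media. Library sums were 546636 to 584495 FPKM, and the smallest steps between values give a rough weight of 0.0368 to 0.0557 FPKM for a single fragment of a 1-kb transcript. A mean below about 0.1 FPKM is thus a handful of fragments. Between 11745 and 11764 genes reached 1 FPKM in an EPSCM library and between 11155 and 11184 in a 2iLIF library.

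A gene was called different at an adjusted p under 0.05 (limma, Benjamini-Hochberg over all tested genes) and a difference of at least 1 on the log2(FPKM + 1) scale, which understates changes of low genes. Differences are EPSCM minus 2iLIF throughout, as log2 difference ± SE, and levels are FPKM, as mean ± SD (n = 3). With this rule 1979 genes were called, 16.5% of those tested. Of these, 1249 were higher in EPSCM (10.4% of tested genes) and 730 lower (6.08%), so 63.1% were higher. That share depends on the scaling of the libraries: it was 51.9% after quantile normalization, with 975 higher and 902 lower, and 56.3% after scaling to the same median ratio. The median difference of all tested genes was 0.02, and the libraries of the media did not overlap for 71.5% of tested genes. Differences of at least 2 on the log2 scale were found for 223 called genes that were higher and 114 that were lower, and differences of at least 3 for 45 and 24. Counts for gene lists below stand beside the 16.5% of all genes. Some lists share members, and a list's untested members stayed low in both media where they had values. A few listed genes, among them Duxf3, Rhox5 and Hmgcs1, had no value, so their levels are not known here.

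**Figure D1:**
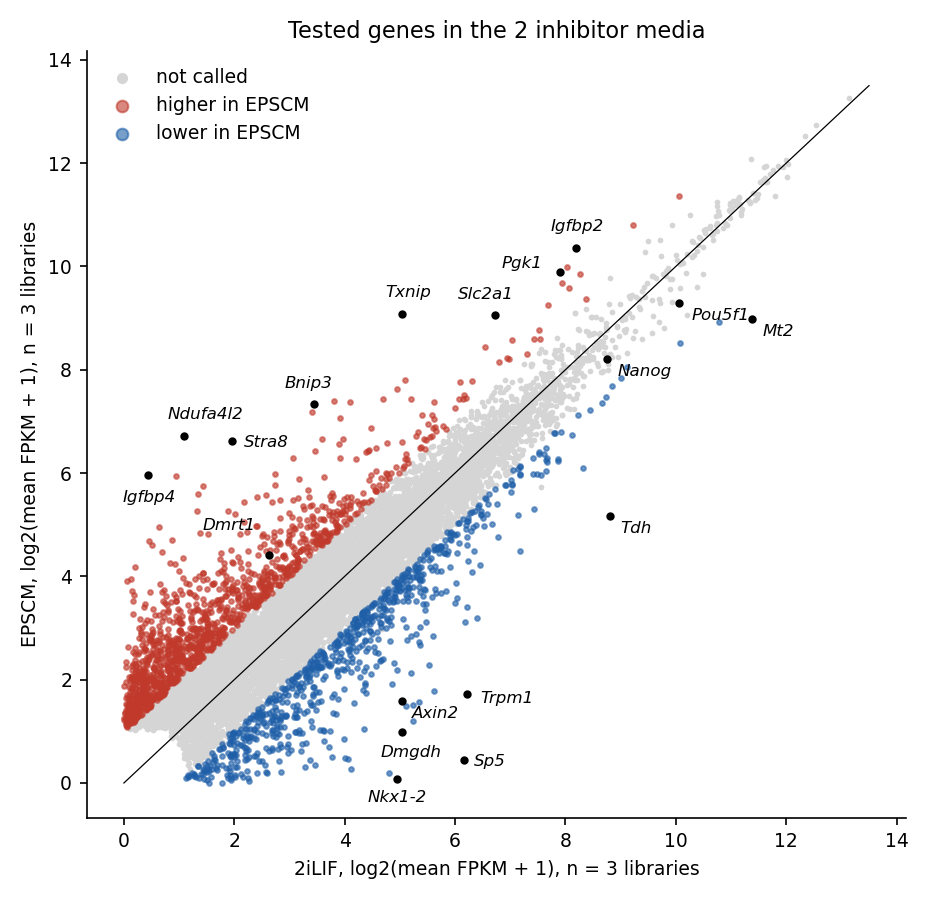
Mean level of each of the 12006 tested genes in 2iLIF (horizontal axis) and EPSCM (vertical axis), both as log2(mean FPKM + 1) of 3 libraries, with called genes in red (1249 higher in EPSCM) and blue (730 lower) and the line of equal levels. Ndufa4l2 and Igfbp4 lie farthest above the line and Sp5 and Nkx1-2 farthest below it, while Nanog and Pou5f1 lie close to it.

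WNT target genes, which β-catenin and its TCF partners switch on, were among the largest falls. Of 20 listed, 14 were tested, 8 fell and 1 rose (Nkd2), with a median difference of -1.54. Summed over the list, the EPSCM libraries held 69.9 to 74.5 FPKM and the 2iLIF libraries 322 to 363. Sp5, a zinc finger factor that TCF proteins switch on directly, stood at 77.5, 65.7 and 67.6 FPKM in the 2iLIF libraries and at 0.301, 0.379 and 0.426 in the EPSCM libraries. No other tested gene fell as far (-5.70 ± 0.08, adjusted p = 2.64e-07). Axin2, a negative-feedback scaffold of the pathway, was at 35.5, 29.8 and 30.0 FPKM in 2iLIF and at 1.85, 2.16 and 2.00 in EPSCM (-3.44 ± 0.09). The libraries of the 2 media were far apart for both genes, and the serum cultures were low as well, at 1.15 FPKM of Sp5 and 2.23 of Axin2. T (brachyury), the primitive streak factor, fell to 0.412 ± 0.118 from 12.7 ± 0.854 FPKM, Cdx1, a caudal-type homeobox factor, to 8.12 ± 0.512 from 83.7 ± 6.39, and Notum, a secreted enzyme that inactivates WNT proteins, to 3.55 from 29.8. Cdx2 was at 2.85 FPKM in 2iLIF and 0.0411 in EPSCM, a level of about 1 fragment per kilobase. Tcf7, Apcdd1 and Znrf3, at -0.66, -0.87 and -0.35, were not called.

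The components of the pathway did not move as its targets did: of 36 tested genes among 52 listed, 5 rose and 4 fell (median 0.07). Sfrp2, a secreted WNT antagonist, rose to 17 from 2.53 FPKM and Dkk3 to 7.97 from 1.86, while the receptor Fzd10 fell to 10.6 from 38.1 and the ligand Wnt11 to 0.426 from 3.84. The mRNAs of β-catenin (Ctnnb1, -0.16), Axin1 (0.02), Apc (-0.39), Gsk3a (0.24), Gsk3b (-0.21) and both tankyrases (Tnks 0.32, Tnks2 0.39) were all short of the limit of 1.

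The stretch of 250 bases before the start of Sp5 is shown because Sp5 is the tested gene that fell the farthest and its window holds a TCF and LEF core motif (CTTTGAT, or ATCAAAG on the other strand; capitals). It lies at chr2:70474673-70474922, plus strand, by RefSeq on GRCm38.p6, and like all promoters below it was matched by symbol and not by coordinates, because the authors used mm9.
Sp5: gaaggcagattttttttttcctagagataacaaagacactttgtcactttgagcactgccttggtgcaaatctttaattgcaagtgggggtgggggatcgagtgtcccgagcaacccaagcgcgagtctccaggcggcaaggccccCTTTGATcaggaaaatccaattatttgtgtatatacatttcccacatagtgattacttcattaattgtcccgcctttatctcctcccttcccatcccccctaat
Of the 8 WNT targets that fell, 4 are in the promoter table, and Sp5 was the 1 with the motif in any window. Counted in the same way, 2.69% of the 9630 tested genes in the table had it. Among all 32851 promoters, counted as single windows, the share was 3.21%. Windows without the motif, such as those of Axin2 and T, lack only these letters in these bases.

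Genes downstream of ERK are known to be low where MEK is blocked, and several were lower in EPSCM than in 2iLIF. Of 20 tested among 23 listed, 7 fell and 3 rose (median -0.30). Among the transcription factors, Etv5 fell to 53.1 from 130 FPKM, Etv1 to 0.373 from 3.68 and the immediate early factor Egr1 to 1.24 from 4.77. Myc, a growth regulator that the WNT list also holds, was at 4.70, 4.33 and 4.41 FPKM in 2iLIF and at 0.337, 0.431 and 0.260 in EPSCM (-2.03 ± 0.07), well under the 37.3 FPKM of the serum cultures. The feedback inhibitors were split. Spry2 fell to 15.1 from 38.5 FPKM, the phosphatase Dusp6 stood at 3.31 against 4.35 (-0.32, short of the limit), and Spry4 at 1.33 against 0.957 (0.25, short of the limit, and -0.10 after quantile normalization), where the serum cultures had 37.8 FPKM of Dusp6 and 61.5 of Spry4. The 3 that rose were Dusp4 and Dusp5, phosphatases that act on ERK in the nucleus, and Ier3, an early-response gene. Ier3 rose to 38.8, 50.3 and 37.5 from 4.16, 3.02 and 3.36 FPKM (3.26 ± 0.14).

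FGF ligands, receptors and their syndecan coreceptors had 11 tested genes among 18 listed, of which 6 rose and 1 fell (median 1.09). The receptors Fgfr3 and Fgfr4 rose to 2.60 and 5.83 FPKM, from 0.0694 and 0.756, and the ligand Fgf15 to 4.24 from 0.151. Fgf4, the main FGF of these cells, was at 165 against 88.8 (0.88, not called), and Fgf17 fell to 0.549 from 5.43.

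Of the SRC family kinases themselves, Src (26.2 against 30.9 FPKM), Lck (4.04 against 7.21), Lyn and Fyn were short of the limit. Yes1 fell, by 1.15 ± 0.27 on the log2 scale, but its difference was -0.94 without EPSCM replicate 2 and -0.96 with a covariate for library numbers from 10 upward, which ended the call. The list of these kinases and adhesion partners had 1 riser, the fibronectin receptor chain Itga5, and 1 faller among 21 tested, 9.52% and below the share of all genes. Immediate early and AP-1 genes, whose JUN proteins are targets of JNK, had 3 higher and 1 lower among 20 tested: Jun was at 4.13 against 2.39 FPKM and Fos at 9.18 against 7.35, neither called, and the small MAF factor Maff rose to 23.7 from 6.12.

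The labelled cell type was checked on the core pluripotency factors, and all 13 listed genes were expressed and tested in both media. Pou5f1 (OCT4) stood at 575, 729 and 576 FPKM in EPSCM and at 1212, 992 and 987 in 2iLIF (-0.76 ± 0.13, not called), and Nanog at 295 ± 2.17 against 432 ± 4.82 (-0.55, not called). For both the libraries of the media did not overlap. Sox2 was at 208 against 181 FPKM (0.21). The 4 that fell were Foxd3, Dppa2, Gdf3 and Zfp42, and none rose. Foxd3, a forkhead factor that maintains pluripotent cells, fell to 4.71 from 23.2 FPKM, and Zfp42 (REX1), a marker of naive cells, to 163 from 404.

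The naive pluripotency genes fell more widely. All 21 listed were tested, 9 fell and 1 rose, and the median was -0.73. Tdh, the threonine-splitting enzyme on which mouse embryonic stem cells depend, was at 486, 428 and 432 FPKM in 2iLIF and 32.3, 38.2 and 34.0 in EPSCM (-3.65 ± 0.08, adjusted p = 6.09e-07), and the serum cultures, at 377, were near 2iLIF. Nr0b1, an orphan nuclear receptor that binds OCT4, fell to 17.5 from 86.3 FPKM (-2.24), Zfp57, which protects imprints, to 67.6 from 320 (-2.23), and Tfcp2l1, a factor downstream of LIF and WNT, to 74.3 from 231 (-1.62). Klf4 fell by 1.21 and Tbx3 by 1.05 on the log2 scale. Esrrb, Nr5a2, Klf5 and Prdm14, at -0.73, -0.74, -0.54 and -0.52, were not called, and Klf2 was level at -0.08. The 1 riser was Dppa3 (STELLA), an oocyte and germ cell protein: it was at 31.0, 23.2 and 29.4 FPKM in EPSCM, at 4.01, 3.25 and 3.86 in 2iLIF and at 2.51 in serum (2.61 ± 0.12).

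Formative and primed genes, which mark cells leaving the naive state, went mostly the other way: of 17 tested among 21 listed, 8 rose and 2 fell (median 0.84). Sox4 rose to 14.6 from 1.11 FPKM, the tight junction protein Cldn6 to 12.8 from 1.56, Otx2, a homeobox factor of the epiblast, to 11.3 from 3.79 and Pou3f1 (OCT6) to 1.74 from 0.191.

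The enzymes that set DNA methylation moved in different directions. Dnmt3a, a methyltransferase that sets new methylation, rose to 12.1, 13.6 and 12 from 1.94, 1.85 and 1.75 FPKM (2.25 ± 0.07), which is near the 13.4 of the serum cultures. Dnmt3l, its catalytically inactive partner, rose to 70.9, 89.4 and 69.4 from 19.6, 17 and 16 (2.06 ± 0.12). Dnmt3b, the other de novo enzyme, fell to 8.39, 8.75 and 8.79 from 20.8, 18.5 and 17.6 FPKM (-1.05 ± 0.07), a call that was lost at -0.98 without 2iLIF replicate 1, at -0.99 without both libraries that stand apart and at -0.97 with array weights. No library of one medium entered the range of the other for any of the 3. The maintenance enzyme Dnmt1 and its partner Uhrf1, at 0.47 and -0.23, were short of the limit. Of the TET enzymes, which oxidise methylated cytosine, Tet2 fell to 14.2 from 41.1 FPKM while Tet1 and Tet3, at -0.46 and 0.20, were not called. In all, 3 of the 19 genes of this list rose and 3 fell.

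**Figure D2:**
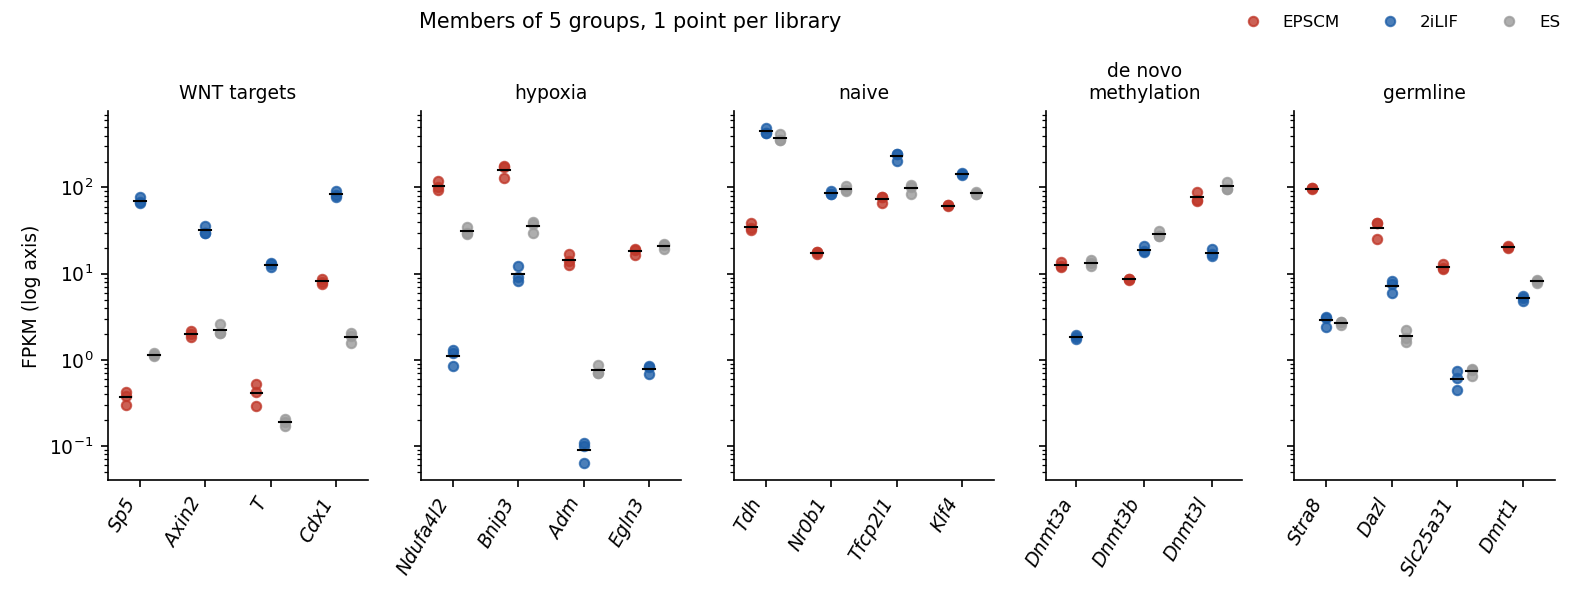
FPKM of single genes (log axis) in each library of EPSCM (red), 2iLIF (blue) and ES (grey), with a black bar at the mean of 3 libraries, in 5 groups. Sp5, Axin2, T and Cdx1 are lower in EPSCM than in 2iLIF in all libraries, the 4 hypoxia genes and Stra8 are higher in EPSCM than in 2iLIF in all libraries, and Dnmt3b goes down while Dnmt3a and Dnmt3l go up.

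Among other signalling lists, single members moved in opposite directions. NODAL, a TGFβ family ligand, fell with its own targets and antagonists: Nodal dropped to 17.1 ± 1.51 from 59.0 ± 4.24 FPKM, Lefty2 to 3.87 ± 0.123 from 45.2 ± 0.770, Lefty1 to 3.73 from 11.1 and Smad7 to 12.1 from 40.1. Skil, a repressor of SMAD signalling, rose to 23.9 from 6.83 FPKM, and the list had 2 higher and 4 lower of 18 tested. The ID proteins, inhibitors of basic helix-loop-helix factors and targets of BMP, split in pairs. Id2 rose to 23.6, 32.5 and 26.3 from 2.23, 1.29 and 1.26 FPKM (3.47 ± 0.17), and Id1 to 30.3 from 7.30. Id3 fell to 1.99, 1.95 and 1.65 from 40.2, 35.4 and 35.1 (-3.73 ± 0.08), and Id4 to 1.93 from 17. Dusp9, an ERK phosphatase that BMP is known to induce in these cells, rose to 145 from 9.63 FPKM (3.77 ± 0.08). LIF and STAT3 targets also split, with 3 higher and 4 lower of 18: Socs3, the feedback inhibitor of the pathway, rose to 88.8 from 22.7 FPKM and the adhesion molecule Icam1 to 197 from 30.1, while Klf4, Tfcp2l1, Gbx2 and the kinase Sgk1 fell. Notch genes had 8 higher and none lower of 16 tested (median 0.72). They were the ligands Dll1 (4.06 against 0.0298 FPKM) and Jag2 (8 against 1.72), the receptors Notch1 and Notch3, the glycosyltransferases Mfng and Lfng, and the targets Hey1 and Nrarp, but the target Hes1 was at -0.51. Most of these were low: with a mean of at least 5 FPKM asked of a gene, fewer members were tested and 2 were called.

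Genes of the response to low oxygen were the list with the highest median, 2.16. In this response the HIF factors, normally destroyed through the oxygen-dependent EGLN enzymes, bind a short ACGTG motif and raise genes for glucose use, matrix and oxygen supply. Of 27 listed genes 26 were tested, 19 rose and none fell, and the list summed to 1857 to 1934 FPKM in EPSCM libraries against 437 to 458 in 2iLIF libraries. Ndufa4l2, a mitochondrial protein that lowers complex I activity, had the largest rise of all tested genes: 94.1, 118 and 101 FPKM against 1.21, 0.843 and 1.31 (5.63 ± 0.12, adjusted p = 5.36e-07). Bnip3, a mitophagy receptor, was at 179, 127 and 174 FPKM in EPSCM and at 8.19, 12.3 and 9.18 in 2iLIF (3.89 ± 0.18). Adm, the vasodilating peptide adrenomedullin, was at 14.1, 16.8 and 12.6 against 0.1, 0.0628 and 0.108 (3.82 ± 0.10). The gap between media was many times the spread within them for the 3 genes, and the serum cultures lay between, at 31.0, 35.6 and 0.764 FPKM. Ddit4 (REDD1), which restrains mTOR, rose to 166 from 13.0 FPKM, the growth factor Vegfa to 85.6 from 20.6, the collagen hydroxylases P4ha1 and P4ha2 to 84.9 from 9.97 and to 37.2 from 2.69, and the oxygen sensors Egln1 and Egln3 to 33.5 from 7.98 and to 18.1 from 0.785. The mRNAs of the factors themselves, Hif1a (22.3 against 28.2), Epas1 (8.76 against 7.34) and Arnt (52.2 against 34.4), were not called. Kdm3a, another known target, was at 42.3 against 80.7 FPKM (-0.92, not called).

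Promoters of 2 of the genes that rose are shown with the ACGTG motif (CACGT on the other strand) in capitals. They are the 2 highest in difference whose first listed window holds it. The Bnip3 window is chr7:138909507-138909756, minus strand, where both strands match in 1 palindrome, CACGTG, and the Ddit4 window is chr10:59951771-59952020, minus strand.
Bnip3: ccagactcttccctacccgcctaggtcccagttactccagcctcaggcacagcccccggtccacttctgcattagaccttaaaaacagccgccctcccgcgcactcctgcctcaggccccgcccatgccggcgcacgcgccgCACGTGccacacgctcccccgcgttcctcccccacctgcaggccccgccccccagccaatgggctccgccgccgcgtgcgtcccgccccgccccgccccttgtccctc
Ddit4: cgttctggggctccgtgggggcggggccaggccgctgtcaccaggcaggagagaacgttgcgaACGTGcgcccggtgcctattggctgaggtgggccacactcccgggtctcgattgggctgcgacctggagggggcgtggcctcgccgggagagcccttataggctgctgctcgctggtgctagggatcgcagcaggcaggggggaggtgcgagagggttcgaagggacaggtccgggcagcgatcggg
Of the 19 genes that rose, 14 are in the promoter table and 10 (71.4%) had the motif in at least 1 window. Counted in the same way, 25.9% of the 9630 tested genes in the table had it. Among all promoters, counted as single windows, the share was 16.6%. A match describes these letters and is no evidence of binding.

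Glycolysis followed the same direction. All 23 listed genes, from glucose uptake to lactate export, were tested and had positive differences; 13 rose past the limit and none fell (median 1.52), and the count was 13 under every setting tried. Their summed level was 17361 to 20691 FPKM in EPSCM and 8282 to 9679 in 2iLIF. The glucose transporter Slc2a1 (GLUT1) was at 494, 601 and 493 FPKM against 117, 100.5 and 98.5 (2.32 ± 0.11), and Slc2a3 (GLUT3) at 1439, 1432 and 1432 against 718, 731 and 721 (0.99, just short of the limit). Slc16a3 (MCT4), which exports lactate, had the largest difference of the list, at 155, 185 and 157 against 18.1, 15.6 and 14.7 (3.29 ± 0.10). Both ends of the pathway were therefore higher in every EPSCM library. Between them rose Pfkfb3, which makes the activator of phosphofructokinase (14.4 from 1.82 FPKM), the phosphofructokinases Pfkl and Pfkp, Aldoa, Pgk1 (945 from 237) and Ldha (1775 from 594). The first enzymes, Hk1 and Hk2, and the pyruvate kinase Pkm were at 0.79, 0.39 and 0.72 and were not called. Pdk1, which keeps pyruvate from the mitochondrion, rose to 30.0 from 8.92. Txnip, an inhibitor of glucose uptake that glucose itself induces, rose to 541, 551 and 528 from 32.5, 32.3 and 31.0 FPKM (4.04 ± 0.05, adjusted p = 2.07e-07).

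**Figure D3:**
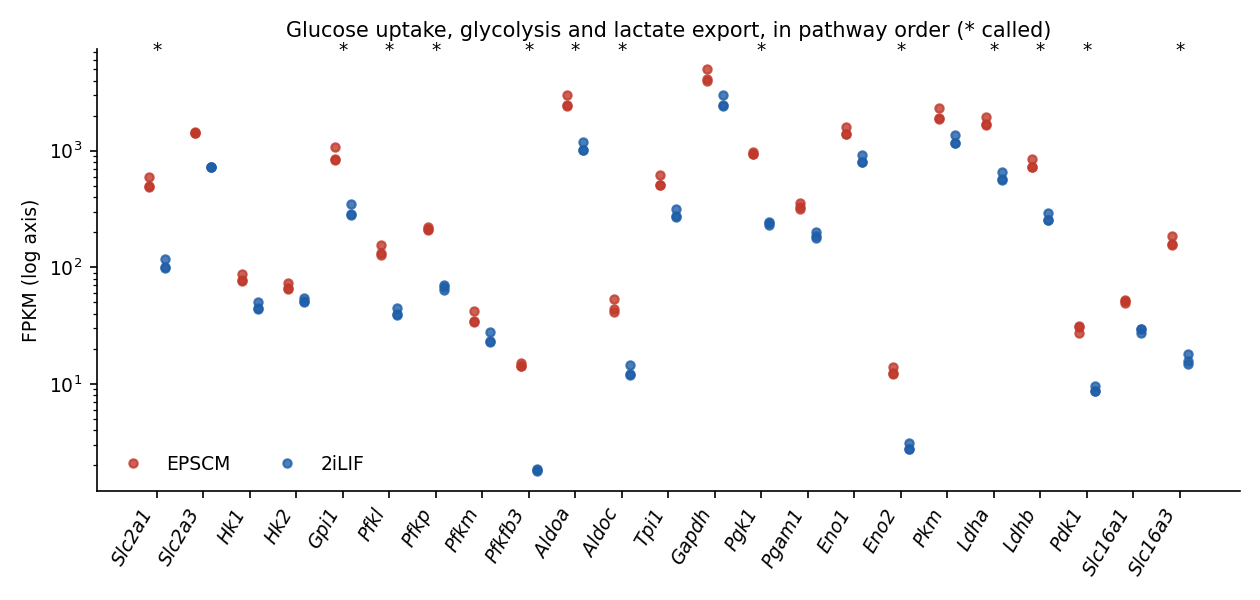
FPKM (log axis) of the 23 glycolysis genes in pathway order in the 3 EPSCM (red) and 3 2iLIF (blue) libraries, with an asterisk over the 13 called genes. EPSCM lies above 2iLIF for each gene, by the most at Slc16a3 and by the least at Hk2.

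Among 28 tested genes of oxidative phosphorylation limma called 0 (10 had an unadjusted p under 0.05 and 9 an adjusted one, at differences short of the limit); differences ran from -0.53 to 0.46 with a median of 0.00. Fatty acid oxidation genes and PPAR targets had 6 higher and none lower of 22, led by the fatty acid carrier Fabp3 at 973, 1121 and 966 against 288, 248 and 239 FPKM (1.98 ± 0.10). Fatty acid synthesis split: the lipogenic regulator Thrsp rose to 14.5 from 1.44 FPKM and the acetyl-CoA synthetase Acss2 to 26.3 from 10.6, while fatty acid synthase, Fasn, fell to 30.1 from 79.1 and the desaturase Scd2 to 264 from 556. Cholesterol synthesis had 1 higher (Dhcr7) and 1 lower (Ebp) of 26.

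Genes of one-carbon, glycine and threonine metabolism fell beside Tdh. Of 19 tested among 23 listed, 6 fell and 1 rose (median -0.52). Dmgdh, the mitochondrial dehydrogenase of dimethylglycine, was at 33.2, 30.2 and 31.9 FPKM in 2iLIF and at 1.02, 0.897 and 1.05 in EPSCM (-4.04 ± 0.07), and at 0.318 in serum. Bhmt, which makes the substrate of Dmgdh, fell to 1.03 from 10.8 FPKM and Tyms, the thymidylate synthase, to 16.9 from 39.9. Mat2a, which makes S-adenosylmethionine, fell to 48.7 ± 14.1 from 128 ± 34.6 FPKM, with the libraries that stand apart being the lowest of their media. Gldc, the glycine decarboxylase, rose to 53.2 ± 2.93 from 26.0 ± 1.06 FPKM, a difference at the limit. The ATF4 programme of amino acid stress had 7 lower and 2 higher of 24. Atf4 itself fell to 75.7 from 200 FPKM, Atf5 to 9.98 from 41.7, the asparagine synthetase Asns to 176 from 427 and the cationic amino acid transporter Slc7a3 to 7.68 from 71.5 (-3.06 ± 0.05). Ddit3 (CHOP), a stress-induced partner, rose to 59.3 from 11.3 FPKM. The antioxidant NRF2 list had 6 lower and 1 higher of 22, with the quinone reductase Nqo1 down to 18.8 from 74.4 FPKM. Metallothioneins, small metal-binding proteins, were split: Mt1 fell to 462, 547 and 448 from 1933, 1648 and 1676 FPKM and Mt2 to 504 ± 31.8 from 2680 ± 226, while Mt3 rose to 18 from 2.92.

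Many germline and meiosis genes were higher in EPSCM. Of 29 tested among 45 listed, 17 rose and 1, Nanos3, fell (median 1.15). Stra8, needed for entry into meiosis and known to be induced by retinoic acid, stood at 97.4, 95.9 and 98.1 FPKM in EPSCM and at 3.08, 2.43 and 3.11 in 2iLIF (4.67 ± 0.08, adjusted p = 2.98e-07). Dazl, which binds germ cell mRNAs, was at 34.3 ± 7.88 FPKM against 7.28 ± 1.19 and Sohlh2, a germ cell transcription factor, at 99.7 ± 5.08 against 14.7 ± 1.57. Genes of the piRNA pathway, which silences transposons, were among the risers: Mael (10.3 against 0.813), Mov10l1 (9.36 against 0.969), Asz1 (5.04 against 0.304), Tdrkh, Ddx4 and Piwil2. The recombinase Dmc1 and the cohesin Smc1b rose to 8.75 and 4.56 FPKM from 1.74 and 0.492. Sycp3, Rec8 and Hormad1, at 0.70, 0.59 and 0.95, were not called.

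Promoters of 2 of these genes are shown because they hold a CACGTG E-box (capitals; it reads the same on both strands and contains the ACGTG searched above). They are the 2 highest in difference that do so in their first listed window. Slc25a31, the ADP/ATP carrier of testis, rose to 12 from 0.606 FPKM, and its window is chr3:40708621-40708870, plus strand. The Mael window is chr1:166238745-166238994, minus strand.
Slc25a31: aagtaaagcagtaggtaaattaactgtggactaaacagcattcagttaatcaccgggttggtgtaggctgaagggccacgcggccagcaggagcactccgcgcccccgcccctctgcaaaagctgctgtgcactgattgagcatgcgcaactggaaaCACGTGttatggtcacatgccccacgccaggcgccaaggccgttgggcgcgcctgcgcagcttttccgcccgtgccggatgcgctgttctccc
Mael: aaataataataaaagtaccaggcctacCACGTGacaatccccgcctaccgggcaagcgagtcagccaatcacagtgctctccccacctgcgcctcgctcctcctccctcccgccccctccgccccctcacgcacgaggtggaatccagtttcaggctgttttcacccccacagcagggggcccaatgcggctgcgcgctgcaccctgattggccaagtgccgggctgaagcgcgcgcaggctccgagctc
Of the 17 germline genes that rose, 15 are in the promoter table and 7 (46.7%) had the E-box in at least 1 window. Counted in the same way, 10.4% of tested genes had it. Among all promoters, counted as single windows, the share was 6.02%. PRC1.6, the repressor complex that binds E-boxes of germline genes through MGA and MAX, was measured as mRNA: Mga was at -0.44, Max at 0.18, Pcgf6 at -0.43, L3mbtl2 at -0.69 and E2f6 at -0.54, none of them called. In the wider Polycomb list 1 gene rose and 1 fell of 27: Phf19, a PRC2 partner, to 6.41 from 0.567 FPKM, and Pcgf1, a PRC1 subunit, to 9.82 from 24.9.

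Dmrt1, the testis and germ cell factor in the title of the series, was at 20.7, 20.4 and 19.6 FPKM in EPSCM and at 5.52, 4.83 and 5.20 in 2iLIF (1.78 ± 0.07). Of 8 listed DMRT genes 5 were tested and 3 rose, the others being Dmrtc2 (5.76 against 0.982 FPKM) and Dmrtb1 (1.6 against 0.111, with the call lost at 0.94 after quantile normalization). Beside Stra8, the retinoic acid list had Crabp1, Crabp2 and Rbp4 higher, all carriers of retinoids, and none lower of 13 tested. Cyp26a1, which degrades retinoic acid and is induced by it, was at 1.63 against 0.468 FPKM (0.84), and the target Meis2 was at -0.57, neither called.

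Igfbp4, a binding protein of insulin-like growth factors, was at 57.7, 66.3 and 59.6 FPKM in EPSCM and at 0.402, 0.404 and 0.254 in 2iLIF (5.52 ± 0.08). Igfbp2, of the same family, rose to 1220, 1496 and 1231 from 326, 272 and 275 (2.17 ± 0.11). The family was not uniform: Igfbp3 (0.12) and Igfbp7 (-0.13) were level. The matrix list had 8 higher and 2 lower of 20, with the lysyl oxidase Loxl2 at 29.0, 30.7 and 29.8 against 0.561, 0.549 and 0.547 FPKM (4.31 ± 0.06) and the basement membrane chains Col4a1 and Col4a2 at 27.1 and 15.7 against 3.31 and 2.25. The laminins Lama1 and Lamc1, at -0.72 and -0.43, were not called. Integrins, cadherins and junction genes had 9 higher and 1 lower of 28; Epcam rose to 22.7 from 9 FPKM, and E-cadherin, Cdh1, was at 143 against 191 (-0.41). The list of MHC and interferon genes had 6 higher and 5 lower of 19 tested (median -0.21): H2-K1 and H2-D1, the classical MHC class I chains, rose to 45.4 and 26.5 from 4.30 and 5.56 FPKM and the peptide transporter Tap1 to 2.66 from 0.481, while Oas1a fell to 2.83 from 19.7, Ddx58 (RIG-I) to 0.530 from 5.15 and Irf9 to 4.21 from 13.1. MHC genes share sequence, so their single values are uncertain. The H2 family, which holds the MHC genes, had 13 higher and 1 lower of 17 tested (median 1.48). It summed to 169 to 200 FPKM in EPSCM libraries against 74.8 to 83.8 in 2iLIF libraries.

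Growth and cell cycle lists held few called genes. Among 28 genes of DNA replication and mitosis limma called 0 (14 had an unadjusted p under 0.05 and 13 an adjusted one), with differences from -0.79 to 0.90. Of 20 tested G1 cyclins and CDK inhibitors 1 rose, Cdkn2c (1.01, a call lost under several settings), and 2 fell. Ccnd1 fell to 19.5 from 46.1 FPKM and its kinase Cdk6 to 1.54 from 8.63 (-1.92 ± 0.06), and the p53 gene Trp53 fell to 76.0 from 233, with its target list at 1 higher and 2 lower of 20 counting Trp53 itself. The riser, Pmaip1 (NOXA), went to 18 from 0.892 FPKM. All 22 tested ribosome biogenesis genes had negative differences (median -0.54), but 2 were called, Rrs1 and Nop2, and Nop2 lost its call in 4 of the settings tried, with differences of -0.95, -0.99, -0.99 and -0.9993. Of 84 ribosomal protein genes 1 was called, Rps27, at 8.01, 55.8 and 46.2 against 7.66, 4.74 and 8.32 FPKM; these libraries overlap, and its call was lost when any single library but EPSCM replicate 1 was left out. Ribosomal protein genes have many near-identical pseudogenes that can share reads.

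Lists of markers of other cell types were summed in each library. The trophoblast list had 3 higher (Esx1, Krt19, Ascl2) and 4 lower (Krt8, Cdx2, Peg10, Tfap2a) of 14 tested among 23 listed, and summed to 130 to 153 FPKM in EPSCM and 178 to 193 in 2iLIF. Its members Prl3d1 and Tpbpa were at 0 in all libraries, and Elf5 was at 0.0310 FPKM in EPSCM and 0.0308 in 2iLIF. Hand1 (0.866 against 0.034 FPKM) and Fgfr2 (0.836 against 0.148), both low and untested, were higher in every EPSCM library. So were Gata3 (0.613 against 0.29) and Gcm1 (0.213 against 0.0295). Plac1 was level at 0.0373 and 0.0371, and Krt7, at 0.505 against 0.676, was lower in EPSCM with libraries that overlapped. The primitive endoderm list had 4 higher and none lower of 13 among 22 listed and summed to 1489 to 1735 against 1439 to 1681 FPKM, ranges that overlap. Gata6, its early factor, rose to 3.45, 2.98 and 3.09 from 0.205, 0.297 and 0.271 FPKM, while Sox17 stayed at 0.554 against 0.422 and Afp and Ttr had means of at most 0.0303. Mesoderm markers summed to 14.5 to 15.4 against 23.4 to 27.5 FPKM with 1 higher (Fgf8, 2.09 against 0.436 FPKM) and 1 lower (T) of 4 tested, and the call of Fgf8 was lost, at 0.98, without EPSCM replicate 2. The neural list summed to 67.3 to 80.6 against 44.1 to 51.5 FPKM with 2 higher (Nes, Sox3) and none lower of 7 tested, and Pax6 and Neurog2 were at 0.215 and 0.0105 in EPSCM. Fibroblast markers summed to 18.1 to 20.5 against 6.64 to 7.29 FPKM with 2 higher (Thy1, Twist1) and none lower of 4 tested, and the fibroblast collagens Col1a1, Col1a2 and Col3a1 were at 0.276, 0.0306 and 0 FPKM in EPSCM. Of 24 listed 2-cell-like genes 20 had values and 1 was tested, Zscan5b, which fell to 0.905 from 4.95 FPKM. Some low, untested members went the other way. Usp17la (0.795 against 0.266 FPKM), Usp17lb (0.970 against 0.542), Usp17ld (0.203 against 0.0978) and Usp17le (1.08 against 0.535) were higher in every EPSCM library. Usp17lc, at 0.312 against 0.205, overlapped, and Tmem92 was at 0.204 against 0.341. Zscan4d was at 0.380 in EPSCM and 0.379 in 2iLIF. The Zscan4 family as a whole summed to 0.383 to 1.27 FPKM in EPSCM libraries and 0.937 to 1.88 in 2iLIF libraries, ranges that overlap. The part of other cell types in the collagen and germline differences was not tested.

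**Figure D4:**
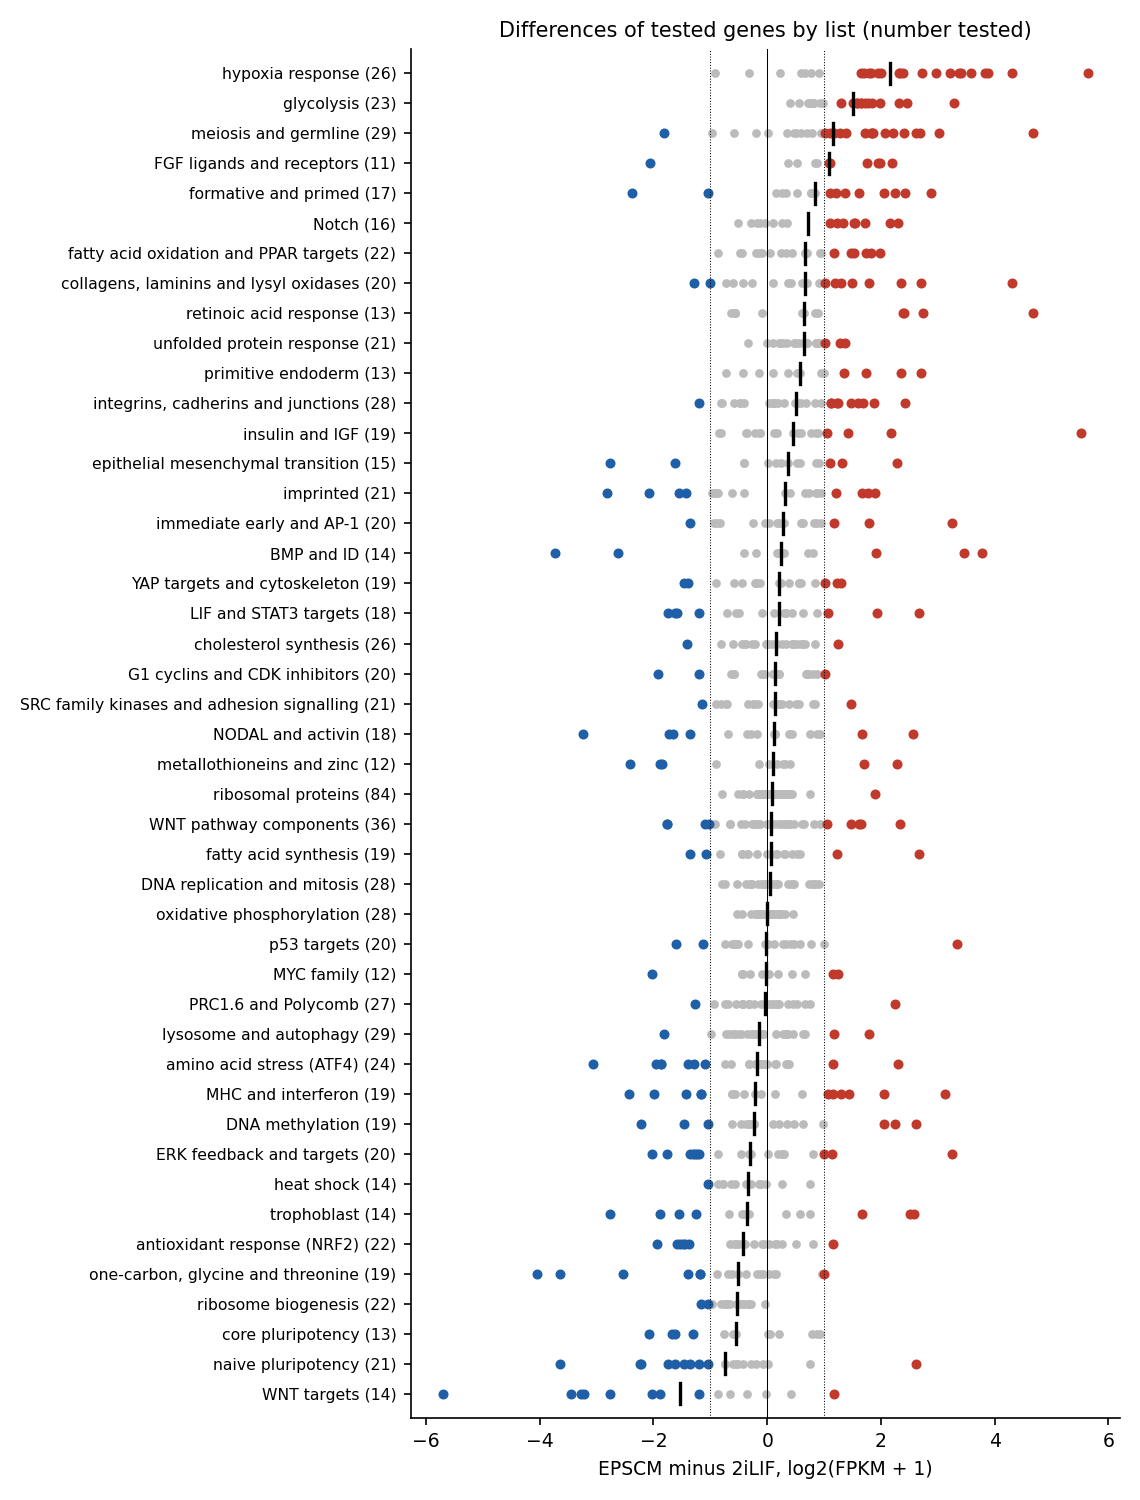
Difference of each tested gene (EPSCM minus 2iLIF on the log2(FPKM + 1) scale) for the lists with at least 10 tested genes, ordered by median (black bar), with called genes in red or blue, dotted lines at -1 and 1 and the number tested in brackets. Hypoxia, glycolysis and germline lists lie at the top, WNT targets, naive and core pluripotency at the bottom, and oxidative phosphorylation is narrow around 0.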

How the data were processed

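The deposited table gives 1 FPKM value per gene symbol and library. The authors made these FPKM with STAR and Cuffnorm against mm9, per the submitters' processing notes (versions, annotation, scaling and strand setting: not given in the sources used here). A linear model was fitted to log2(FPKM + 1) of the 3 EPSCM and 3 2iLIF libraries with limma 3.58.1 in R 4.3.3 (empirical Bayes with a variance trend, Benjamini-Hochberg adjustment). No count test was used because FPKM are not counts. Named genes were the 15 largest rises and 15 largest falls averaging 5 FPKM or more in the higher medium, with no overlap, up to 4 per list, a set of key genes and the most abundant genes; other members of the 51 lists are printed as list members, chosen with their values seen. The members, lists, motifs and tests were chosen with earlier results of these data known. On simulated data with 12006 genes, 14 of 50 genes changed by exactly 1 were called, 48 of 50 changed by 1.5 and all 50 changed by 2, with 0 unchanged genes called. The simulated noise was independent between genes and libraries, and changed genes averaged above 2 on the log2 scale. It held no shift shared by many genes of a library, so it does not measure false calls from one. Close libraries differed by more than counting noise (chi-square per degree of freedom of 1.50 and 1.72) and were kept as separate samples. Promoter windows, 250 bases upstream of the start, came from RefSeq on GRCm38.p6 by symbol; 24734 of 24819 symbols matched the gene table, and chromosomes come from it. Some genes of the lists are not reported here by name.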

Additional observations from a re-analysis of the deposited data

How the results depend on the processing

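No paired analysis was possible because no library number in the labels is shared by the 2 media, and the replicate numbers used here only follow sample order. Asking for a mean of at least 5 FPKM left 8513 genes and 1045 called, 556 of them higher, all 1045 also called among 12006; a pseudocount of 0.1 gave 2736 calls. Leaving out 1 library at a time gave 1973 to 2016 called genes, 1222 to 1275 higher and 728 to 751 lower; without both libraries that stand apart, 1966 were called, and with these 2 as a covariate 1983. Of 179 named genes followed over 19 settings, 166 kept direction and call in every setting that tested them; Spry4 alone changed sign, to -0.10 after quantile normalization. Calls of Cdkn2c, Calr, Fgf8, Igfbpl1, Twist1, Cryab and Hist1h2bc were each lost under at least 1 setting. Values of genes below about 0.1 FPKM are limited by depth.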

Other observations

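Several gene families of chromosome X known from testis and germ cells were higher in EPSCM; they were picked after the values were seen, so their counts are a description. Of 422 tested genes of chromosome X, 70 were higher and 30 lower, 23.7% called against 13.2% to 19% on the autosomes. The homeobox family Rhox had 6 higher and none lower of 9 tested and summed to 52.1 to 59.2 FPKM in EPSCM libraries against 10.2 to 11.6 in 2iLIF. The Xlr family, relatives of a synaptonemal complex protein, had 6 of 8 higher (44.9 to 64.9 against 8.57 to 9.77 FPKM), Magea 2 of 3, Fthl17 2 of 2 and Tex13 1 of 1. Together 17 of these 23 genes were higher and none lower, and the rest of chromosome X had 53 higher and 30 lower of 399 (20.8%). Copies within these families share sequence, so single values are uncertain and the family sums are given.

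Genes present in one medium and nearly absent in the other were few. At 5 FPKM or more in every EPSCM library and under 0.5 in every 2iLIF library there were 30 genes, among them Sncb (β-synuclein, 14 against 0.0373 FPKM), the neurexophilin Nxph4 and the MHC class II chain H2-Ab1 (17.1 against 0.144). In the reverse there were 10, among them the homeobox factors Nkx1-2 (29.9 FPKM in 2iLIF against 0.0570) and Tlx2 and the slow-muscle troponin Tnni1 (26.8 against 0.145). The Serpinb protease inhibitors had 5 lower and none higher of 6 tested, led by Serpinb9b.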
